A study of Mus musculus with 12 samples.

Results

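The genes described here are 10 Eph receptors and ephrins, namely the receptors Epha1, Epha2, Epha3, Epha4, Epha7, Ephb2 and Ephb4 and the ligands Efna1, Efnb1 and Efnb2. They were chosen by symbol, with values of these same mice known, and make up 10 of the 55092 rows of the expression table and 10 of the 22 mouse genes of the family that were looked up. The abdominal aorta of each of 12 male mice gave 1 RNA-seq library, and each of the 4 groups held 3 mice. CFS mice were CCN2fl/fl mice, which carry the floxed Ccn2 allele and no Cre, given saline. CSS mice were CCN2SMCΔ mice (CCN2fl/fl-Myh11-Cre-ERT2) given saline, CFA mice were CCN2fl/fl mice infused with Ang II, and CSA mice were CCN2SMCΔ mice infused with Ang II. Ang II was delivered by mini-osmotic pump at 500 ng/kg/min for 7 days. In all 4 groups tamoxifen was injected at 8 weeks of age in 5 consecutive doses, followed by a washout, so that the floxed allele and tamoxifen are common to controls and knockouts. Cre is driven by the smooth muscle myosin promoter Myh11, which restricts the deletion to smooth muscle cells (SMCs), whereas the libraries hold RNA of the whole aortic wall.

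Eph receptors are receptor tyrosine kinases whose ligands, the ephrins, are themselves bound to the membrane of a neighbouring cell. Ephrin-A ligands are held by a lipid anchor and ephrin-B ligands span the membrane, so contact between cells sends a forward signal through the receptor and a reverse signal through the ligand. In blood vessels the pathway is known for the pairing of ephrin-B2, which marks arterial endothelium and is also made by vascular smooth muscle, with EphB4, which marks veins, and for guiding the attachment of SMCs and pericytes to the vessel wall.

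The promoters of the 4 members whose CSA values lay below those of all other mice (Epha1, Epha4, Epha7 and Efnb2) are printed first, so that their start regions could be searched for shared short motifs. Over the 9 mice outside CSA, Pearson's r with Efnb2 was -0.21 for Epha1, -0.30 for Epha7 and 0.54 for Epha4, while among the 3 receptors it was 0.88 for Epha1 with Epha7, 0.55 for Epha1 with Epha4 and 0.36 for Epha4 with Epha7 (a description over libraries shared by all genes, with no test). All 10 members had a promoter entry in RefSeq (GRCm38.p6), which runs from 250 bases before to 50 bases after the start set by that entry. This start can differ from the annotated gene start: the Efnb1 window ended at 99136110, before the gene start at 99136130. For Epha7, which has a second window a few bases away, the first is shown. Each line is written 5′ to 3′ on the strand of the gene, and capitals mark the motif matches.

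Epha1, chr6:42373219-42373518, minus strand: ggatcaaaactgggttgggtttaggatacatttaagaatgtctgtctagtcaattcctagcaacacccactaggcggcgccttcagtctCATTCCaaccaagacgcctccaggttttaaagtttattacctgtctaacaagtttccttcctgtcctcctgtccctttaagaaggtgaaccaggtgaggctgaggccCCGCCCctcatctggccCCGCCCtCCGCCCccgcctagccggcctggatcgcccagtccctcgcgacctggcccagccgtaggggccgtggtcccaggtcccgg

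Epha4, chr1:77515039-77515338, minus strand: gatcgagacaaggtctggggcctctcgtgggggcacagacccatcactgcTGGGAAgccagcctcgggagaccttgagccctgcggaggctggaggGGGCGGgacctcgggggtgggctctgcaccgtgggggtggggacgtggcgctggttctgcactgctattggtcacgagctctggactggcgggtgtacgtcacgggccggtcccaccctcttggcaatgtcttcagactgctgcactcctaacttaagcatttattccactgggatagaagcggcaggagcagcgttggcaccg

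Epha7, chr4:28812881-28813180, plus strand: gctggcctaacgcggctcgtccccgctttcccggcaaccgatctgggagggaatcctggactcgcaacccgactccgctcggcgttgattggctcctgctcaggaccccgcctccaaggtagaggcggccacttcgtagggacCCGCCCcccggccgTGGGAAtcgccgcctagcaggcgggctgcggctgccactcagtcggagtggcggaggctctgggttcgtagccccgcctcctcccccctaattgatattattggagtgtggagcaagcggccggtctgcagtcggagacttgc

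Efnb2, chr8:8661193-8661492, minus strand: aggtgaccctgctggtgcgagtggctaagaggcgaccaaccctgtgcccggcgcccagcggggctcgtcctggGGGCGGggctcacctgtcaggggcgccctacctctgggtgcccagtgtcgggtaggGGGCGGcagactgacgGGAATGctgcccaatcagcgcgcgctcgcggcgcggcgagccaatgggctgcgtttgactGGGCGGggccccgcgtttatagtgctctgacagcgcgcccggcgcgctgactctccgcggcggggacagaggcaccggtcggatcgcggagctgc

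Motifs were searched on both strands by their letters: the GC box GGGCGG, which is bound by Sp-family factors, GGAATG for TEAD factors, TGGGAA for the Notch partner RBPJ, TGANTCA for AP-1, and the CArG box of serum response factor. GGAATG and TGGGAA can share bases where they follow one another, and the other letters can overlap by a few bases. The Epha1 window held 3 GC boxes and 1 TEAD match, and the Efnb2 window likewise 3 GC boxes and 1 TEAD match. The Epha4 and Epha7 windows each held 1 GC box and 1 RBPJ match. The same letters occurred in windows of the other members: 2 TEAD matches and 1 GC box for Epha2, 1 TEAD match for Epha3, 4 GC boxes for Ephb4, 1 and 2 GC boxes in the 2 windows of Efna1, and 2 RBPJ matches for Efnb1, with no match for Ephb2. The letters were therefore not particular to the 4 printed genes. Neither the CArG box nor the AP-1 letters occurred in any window of the 10 members. Over all 32851 mouse windows of this length, 35.7% held a GC box, 14.7% the TEAD letters, 25.6% the RBPJ letters, 7.81% the AP-1 letters and 1.63% a CArG box. GC content was 58.0% for Epha1, 64.0% for Epha4, 67.0% for Epha7 and 72.3% for Efnb2, each above the median of 52.7% over all windows, as were the windows of the other 6 members. The matches describe the letters in these windows and were not tested as binding sites.

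Expression was measured as FPKM, fragments per kilobase of gene length scaled to the size of the library, which allows levels of different genes to be set side by side. The number of fragments assigned to genes ranged from 17805952 to 23107806 in 11 libraries and was 14558580 in the library of CSA mouse 03. That library stood apart. On the log2 scale its root mean square distance to the other CSA libraries reached 1.21, whereas those were 0.505 apart, and only 273 genes had a single fragment in it, against 1132 to 2437 in the other libraries. Its commonest low fragment number (from 1 to 20) was 6, against 1 in all others, and 18468 genes were above 0 in it, against 20864 to 24323, so that a value of 0 in this library may stand for low fragment numbers. Fold changes of the members between CSA and CFA are therefore also given without it. The targeted gene, Ccn2, was measured at 710, 1108 and 480 FPKM in CFS mice and at 436, 640 and 587 FPKM in CSS mice, so that the saline groups overlapped. Ccn2 was at 1013, 1105 and 564 FPKM in CFA mice and at 255, 331 and 399 FPKM in CSA mice, the lowest of the 12. By limma, the difference between CSA and CFA in Ccn2 was -1.41 ± 0.34 (log2 ± SE, adjusted p = 0.00622, and, beyond the fold limit, -1.56 without CSA mouse 03 and -1.71 without CFA mouse 74), and between CSS and CFS it was -0.40 ± 0.34 (adjusted p = 1), both in RNA that also comes from cells without Cre. The exons of Ccn2 share 23.2% of their bases with other annotated genes. By qPCR the paper reports a larger relative loss of Ccn2 RNA in knockout aortas under Ang II.

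At baseline the EphB4 and ephrin-B2 pair and Epha3 were highest among the 10 members. In CFS mice the mean level was 19.9 ± 2.27 FPKM for Efnb2 (SD, n = 3), 16.9 ± 3.97 FPKM for Ephb4 and 15.8 ± 3.09 FPKM for Epha3, with overlapping ranges between neighbours. Efna5, a family gene that is not a member, overlapped with Epha3 at 14.3 ± 3.83 FPKM. A second tier of members was formed by Efnb1 at 7.23 ± 1.85 FPKM, Epha1 at 6.46 ± 0.904 FPKM and Efna1 at 5.67 ± 1.85 FPKM, which overlapped one another and lay below Epha3 in every CFS mouse. Epha4, Epha2, Epha7 and Ephb2 were lowest, with means from 2.56 FPKM for Epha4 to 1.85 FPKM for Ephb2. They lay below Efna1 in every CFS mouse and overlapped with one another from each rank to the next. Among the members the first 3 places were the same in CSS and CFA mice. In CSA mice the order was different: Epha3 led at 21.7 ± 8.35 FPKM, followed by Ephb4, Efna1, Efnb2, Efnb1, Ephb2 and Epha2, each overlapping its neighbour, and then, below a gap in the ranges, by Epha4, Epha7 and Epha1 at means of 0.654, 0.475 and 0.440 FPKM. The places of Epha1, Efnb2 and Ephb2 in CSA rest on mouse 03. In CSA mice 01 and 02 Epha1 (0.564 and 0.756 FPKM) was above Epha4 and Epha7, and Efnb1 (10.6 and 7.81 FPKM) was above Efnb2. In the same mice Epha2 (4.19 and 3.75 FPKM) was above Ephb2 (3.59 and 3.41 FPKM).

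**Figure D1:**
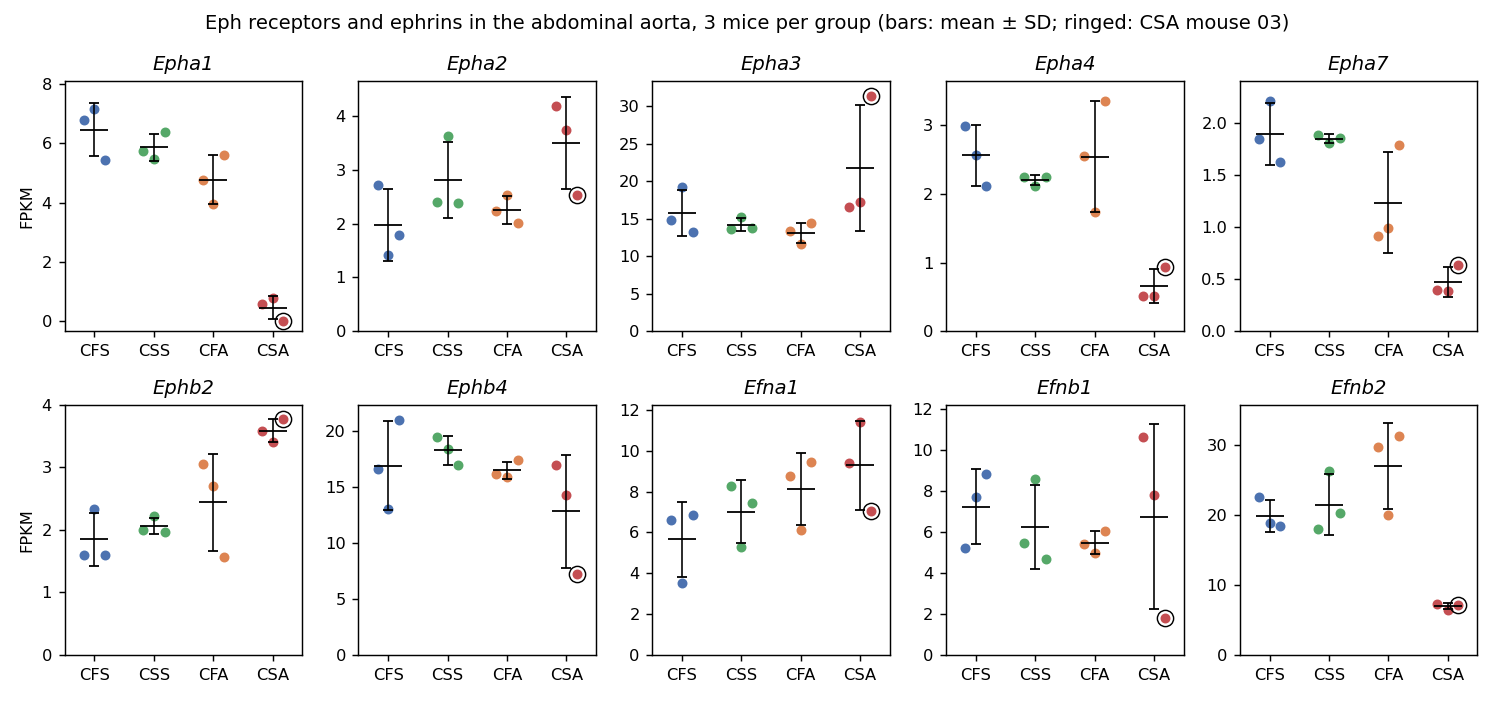
Expression of the 10 Eph receptors and ephrins in FPKM (vertical axes, linear, scaled separately for each gene) in every mouse of the 4 groups (horizontal axes), with black bars for mean ± SD of 3 mice and a ring around CSA mouse 03. The CSA points of Epha1, Epha4, Epha7 and Efnb2 lie below all other points of those genes, with Efnb2 at 6.49 to 7.30 FPKM against 17.9 to 31.3 FPKM elsewhere.

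Efnb2 (ENSMUSG00000001300, GRCm38 chromosome 8, 8617434 to 8661242, minus strand) encodes ephrin-B2, the arterial ligand of EphB4. Its level was 22.5, 18.8 and 18.4 FPKM in CFS mice, 17.9, 26.3 and 20.2 FPKM in CSS mice, 29.7, 19.9 and 31.3 FPKM in CFA mice, and 7.30, 6.49 and 7.07 FPKM in CSA mice. The 3 CSA mice were close to each other and below each of the other 9 mice. The log2 difference between CSA and CFA was -1.91 ± 0.19 (log2 of FPKM + 0.1 ± SE), which is 3.77-fold lower, and without CSA mouse 03 it was -1.93. Among the members it had the smallest standard error.

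Epha1 (ENSMUSG00000029859, chromosome 6, 42358487 to 42373268, minus strand) encodes an A-class receptor known from epithelial cells. It was at 6.78, 7.17 and 5.45 FPKM in CFS mice, 5.75, 5.48 and 6.38 FPKM in CSS mice and 4.74, 3.95 and 5.62 FPKM in CFA mice. In CSA mice it was at 0.564 and 0.756 FPKM and was listed at 0 in mouse 03. By counting error alone a 0 allows up to 3 fragments, and in that library, with its lack of low fragment numbers, it may hide more. All 3 CSA values lay below the lowest value of the other groups. Compared with CFA, CSA mice were at a log2 difference of -3.65 ± 0.62, and -2.68 without mouse 03, whose value of 0 sets part of the size. Its exons share 6.01% of their bases with other annotated genes.

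Epha4 (ENSMUSG00000026235, chromosome 1, 77367185 to 77515088, minus strand) encodes a receptor that binds both ephrin classes and is best known from axon guidance. It was at 3.0, 2.58 and 2.12 FPKM in CFS mice, 2.25, 2.12 and 2.25 FPKM in CSS mice, 2.55, 1.74 and 3.35 FPKM in CFA mice, and 0.508, 0.515 and 0.940 FPKM in CSA mice. No CSA mouse reached the lowest value of another group, which was 1.74 FPKM in a CFA mouse. Against CFA the log2 difference was -1.81 ± 0.28, and -2.07 without mouse 03. With a pseudocount of 1 in place of 0.1 it was -1.09, inside the fold limit, since the levels are near 1 FPKM.

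Epha7 (ENSMUSG00000028289, chromosome 4, 28813131 to 28967499, plus strand) encodes another A-class receptor, with a known role in cell sorting and repulsion in the nervous system. It was at 1.84, 2.22 and 1.62 FPKM in CFS mice, 1.89, 1.81 and 1.86 FPKM in CSS mice, 0.920, 0.992 and 1.79 FPKM in CFA mice and 0.399, 0.386 and 0.640 FPKM in CSA mice. Here the CFA mice were split, with 2 of the 3 below every saline mouse, and the CSA mice were lower still. The difference between CSA and CFA was -1.18 ± 0.28 and that between CSA and CSS was -1.79 ± 0.28, so that the fold limit of 1.5 on the log2 scale was passed only against CSS. Without mouse 03 these were -1.38 and -1.99.

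Epha3 (ENSMUSG00000052504, chromosome 16, 63543534 to 63864175, minus strand) encodes a receptor of ephrin-A5 found on mesenchymal cells. Its values were 14.8, 19.2 and 13.2 FPKM in CFS mice, 13.6, 15.2 and 13.7 FPKM in CSS mice, 13.3, 11.7 and 14.4 FPKM in CFA mice, and 16.6, 17.2 and 31.4 FPKM in CSA mice. The CSA mice were above the CFA and CSS mice and overlapped with CFS, and mouse 03 was far above the others in its group. On the log2 scale CSA was above CFA by 0.67 ± 0.23, and 0.37 without mouse 03.

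Ephb2 (ENSMUSG00000028664, chromosome 4, 136647539 to 136835988, minus strand), a receptor of ephrin-B ligands that guides migrating cells, was at 1.60, 2.34 and 1.60 FPKM in CFS mice and 2.0, 2.22 and 1.97 FPKM in CSS mice. It was at 3.05, 2.70 and 1.57 FPKM in CFA mice and 3.59, 3.41 and 3.77 FPKM in CSA mice, where all 3 mice were above all others. The difference between CSA and CFA was 0.59 ± 0.24, and that between CSA and CSS was 0.77 ± 0.24 (0.55 and 0.74 without mouse 03).

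Epha2 (ENSMUSG00000006445, chromosome 4, 141301240 to 141329384, plus strand), the endothelial and epithelial receptor of ephrin-A1, was at 2.72, 1.42 and 1.80 FPKM in CFS mice, 2.41, 3.62 and 2.39 FPKM in CSS mice, 2.23, 2.53 and 2.01 FPKM in CFA mice and 4.19, 3.75 and 2.54 FPKM in CSA mice. The CSA and CFA ranges were separated only by the step from 2.53 to 2.54 FPKM, while the CSA and CSS ranges overlapped. The difference between CSA and CFA was 0.59 ± 0.27, with a 95% interval from -0.01 to 1.18, and 0.79 without mouse 03.

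Ephb4 (ENSMUSG00000029710, chromosome 5, 137350109 to 137378669, plus strand), the receptor of ephrin-B2, was at 16.7, 13.1 and 21.02 FPKM in CFS mice, 19.5, 18.5 and 17.0 FPKM in CSS mice, 16.2, 15.95 and 17.4 FPKM in CFA mice, and 17.0, 14.3 and 7.26 FPKM in CSA mice. The low CSA value belonged to mouse 03 and the other CSA mice were within the range of CFS mice. Between CSA and CFA the log2 difference was -0.45 ± 0.27 with mouse 03 and -0.08 without it.

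The ligand Efna1 (ENSMUSG00000027954, chromosome 3, 89271733 to 89281142, minus strand), which encodes ephrin-A1, a ligand induced by tumour necrosis factor in endothelium, was at 6.62, 3.53 and 6.84 FPKM in CFS mice, 8.29, 5.31 and 7.46 FPKM in CSS mice, 8.78, 6.13 and 9.46 FPKM in CFA mice and 9.39, 11.4 and 7.06 FPKM in CSA mice. Group means ran from 5.67 FPKM in CFS to 9.29 FPKM in CSA, with ranges that overlapped between CSA and both CSS and CFA. Between CSA and CFA Efna1 differed by 0.19 ± 0.29, and by 0.37 without mouse 03.

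Efnb1 (ENSMUSG00000031217, chromosome X, 99136130 to 99148991, plus strand), the X-linked ephrin-B1 gene, was at 5.20, 7.68 and 8.82 FPKM in CFS mice, 5.44, 8.57 and 4.69 FPKM in CSS mice, 5.41, 4.97 and 6.05 FPKM in CFA mice and 10.6, 7.81 and 1.78 FPKM in CSA mice. The CSA group held both the highest and the lowest Efnb1 value of the series. For CSA against CFA the log2 difference was -0.04 ± 0.53 and 0.73 without mouse 03, so that 1 library turned its sign, and its standard error was larger than that of any member but Epha1.

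Counted over the members, 3 of 10 passed the limits (adjusted p under 0.05 by limma and a log2 fold change beyond 1.5 in either direction) between CSA and CFA, all 3 lower in CSA: Epha1, Epha4 and Efnb2. Of all 14676 genes tested, 17.2% passed in this comparison, 8.27% lower and 8.95% higher. Without the fold limit 5 members passed, with Epha3 higher and Epha1, Epha4, Epha7 and Efnb2 lower, where 40.7% of all genes did (19.5% higher and 21.2% lower). The values of CSA and CFA did not overlap for 7 members (4 lower, 3 higher), and for 48.5% of all genes (25.1% lower, 23.4% higher). The median log2 difference was -0.24 over the members and -0.04 over all genes, and the median size was 0.63 and 0.54. As these groups' values were known when the members were chosen, no p-value is attached to a member and nothing is read from the counts.

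**Figure D2:**
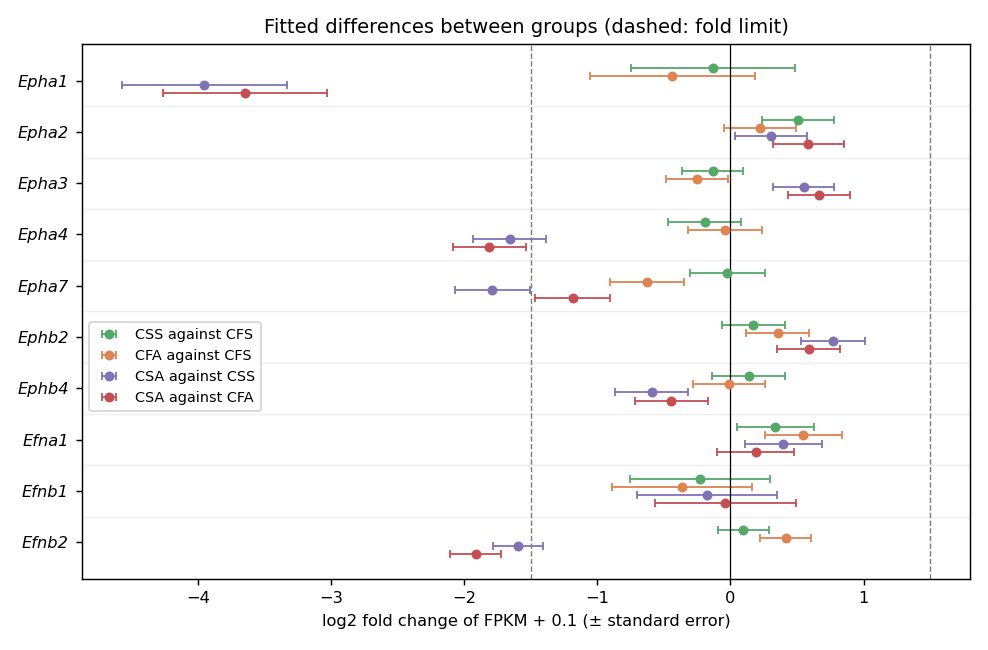
Log2 fold change (horizontal axis, FPKM + 0.1) of each member (vertical axis) in 4 comparisons, as points with standard errors from the fit over 12 libraries and dashed lines at the fold limit of 1.5 in either direction. Between the saline groups and between CFA and CFS all members lie inside the limit, whereas Epha1, Epha4 and Efnb2 lie beyond it in both comparisons with CSA and Epha7 in 1 of them.

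The comparison of the saline groups asks what the Cre genotype does without Ang II. Between CSS and CFS 0 of 10 members passed, and differences ranged from -0.23 for Efnb1 to 0.51 for Epha2. All 10 ranges overlapped, whereas those of 20.4% of all genes did not. Over all genes 0.0136% passed here, which is 2 genes (924 at an unadjusted p under 0.05, limma), and this number was 0 to 20 over the alternatives, with 20 when only the compared groups entered the fit and 16 without CSA mouse 03.

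The effect of Ang II in mice without Cre was read from CFA and CFS. Between CFA and CFS 0 of 10 members passed, and 0.0273% of all genes did, which is 4 genes (1383 at an unadjusted p under 0.05, limma). That number ranged from 0 to 124 over the alternatives, with 124 without CFA mouse 74 and 19 without CSA mouse 03. All 10 ranges overlapped, against 20.2% of all genes whose ranges did not. Differences ran from -0.63 for Epha7 to 0.55 for Efna1. Efnb2 was at 27.0 ± 6.12 FPKM in CFA and 19.9 ± 2.27 FPKM in CFS (SD, n = 3 each), which put it on the side opposite to that in CSA mice.

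Between CSA and CSS, which sets Ang II against saline in the knockout, 4 of 10 members passed, all lower in CSA: Epha1 at -3.95 ± 0.62 (-2.98 without CSA mouse 03), Epha4 at -1.66 ± 0.28, Epha7 at -1.79 ± 0.28 and Efnb2 at -1.60 ± 0.19. Over all genes 20.3% passed and 9.36% were lower. This comparison shares the CSA mice with that against CFA and is no independent repeat of it. Without CSS mouse 55 Efnb2 was at -1.44, inside the fold limit, and with a pseudocount of 1 only Epha1 passed. In CSS mouse 55 and CFS mouse 68 the skeletal muscle marker Acta1 was at 115 and 75.6 FPKM, against 1.12 to 1.74 FPKM in the other saline mice. Efnb2 (26.3 and 22.5 FPKM) and Epha2 (3.62 and 2.72 FPKM) were the only members highest of their group in both. The part of skeletal muscle RNA in these values was not tested. The genotype by treatment interaction, the effect of genotype under Ang II less that under saline, was -3.52 ± 0.88 for Epha1 (-2.55 without CSA mouse 03), -1.62 ± 0.39 for Epha4 and -2.01 ± 0.27 for Efnb2, and 3 of 10 members passed, all lower, where 15.2% of all genes did and 7.31% were lower. Epha4 dropped inside the fold limit when CFS mouse 70, CFA mouse 74, CSA mouse 01 or CSA mouse 02 was left out (-1.40 to -1.49).

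**Figure D3:**
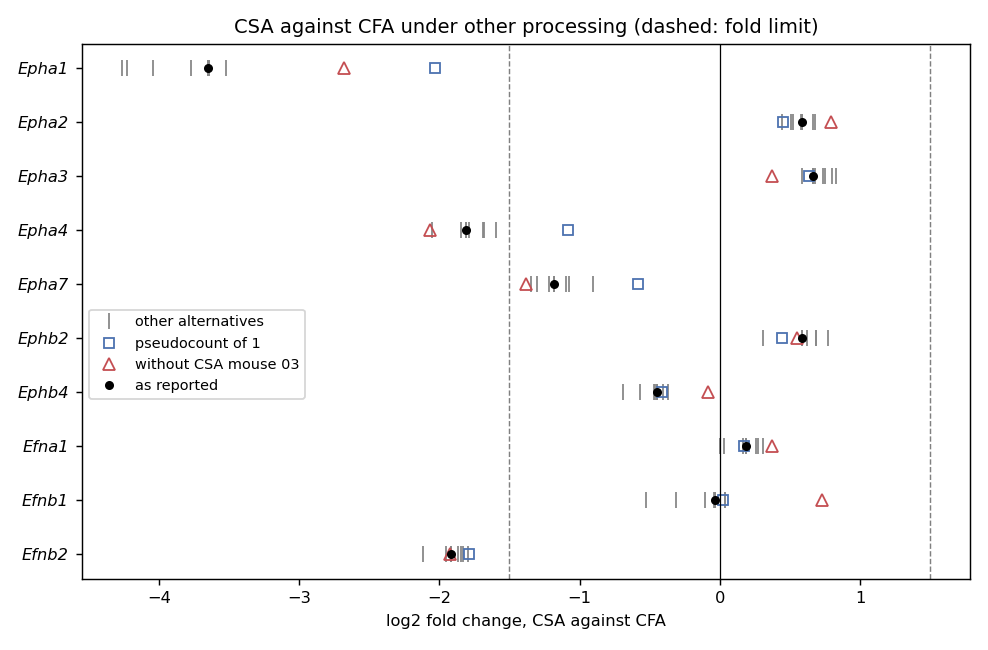
Log2 fold change between CSA and CFA (horizontal axis) of each member (vertical axis) as reported (black points), with a pseudocount of 1 (squares), without CSA mouse 03 (triangles) and under the other alternatives (grey ticks), with dashed lines at the fold limit. Efnb2 stays within -1.79 and -2.12, while Epha1 moves from -3.65 to -2.03 with the larger pseudocount and Efnb1 from -0.04 to 0.73 without mouse 03.

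The balance between ligands and receptors followed from these levels. The 14 Eph receptor genes summed to 56.4 ± 1.24 FPKM in CFS, 57.2 ± 2.59 in CSS, 52.8 ± 5.26 in CFA and, with the SD over 3 mice as in every value here, 49.8 ± 2.26 in CSA. The 8 ephrin genes summed to 48.9 ± 6.37 FPKM in CFS, 54.5 ± 1.78 in CSS, 59.0 ± 9.29 in CFA and 32.0 ± 6.73 in CSA, and the CSA mice, at 35.9, 35.8 and 24.2 FPKM, were below all other mice, whose lowest value was 42.2 FPKM. This lower sum was not shared by all ephrins. Mean FPKM in CFA and CSA was 27.0 and 6.95 for Efnb2 and 15.9 and 6.08 for Efna5. It was 8.12 and 9.29 for Efna1 and 5.48 and 6.73 for Efnb1. Efna2, Efna3, Efna4 and Efnb3 were at means of at most 1.49 in both groups. The ratio of Efnb2 to Ephb4 was 1.35, 1.44 and 0.873 in CFS, 0.919, 1.42 and 1.19 in CSS, 1.84, 1.25 and 1.80 in CFA, and 0.430, 0.453 and 0.975 in CSA. The ratio of CSA mouse 03, in which Ephb4 itself was low, overlapped with the saline groups, and those of the other CSA mice did not. Epha3 made up 62.2% of the receptor sum in CSA mouse 03 and 32.1% and 36.4% in the other CSA mice, against 23.96% to 33.3% in the remaining groups. The 10 members together accounted for 70.8% to 83.6% of the family's FPKM in each mouse.

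**Figure D4:**
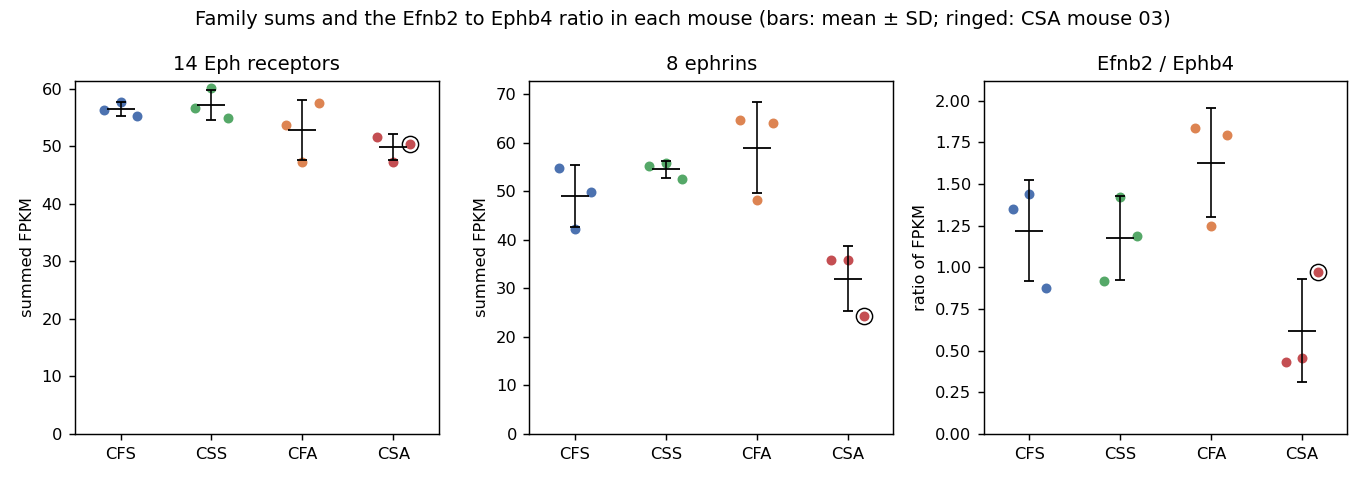
Summed FPKM of 14 Eph receptors (left) and of 8 ephrins (middle) and the ratio of Efnb2 to Ephb4 (right) on vertical axes that start at 0, for every mouse of the 4 groups, with mean ± SD and a ring around CSA mouse 03. The ephrin sum lies between 24.2 and 35.9 FPKM in CSA mice and at or above 42.2 FPKM elsewhere, while the receptor sums of CSA (47.3 to 51.7) overlap with those of CFA (47.2 to 57.5). The lower ephrin sum rests mainly on Efnb2 and Efna5.

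Of the 12 other family genes, 5 were expressed well enough to be tested. Between CSA and CFA 1 of these 5 passed both limits, where 17.2% of all 14676 tested genes did. Ephb6, which encodes a receptor without kinase activity, was at 6.05, 6.47 and 5.58 FPKM in CFS, 5.49, 6.91 and 5.30 in CSS, 4.38, 3.41 and 8.26 in CFA and 1.92, 1.57 and 1.28 in CSA mice, with all CSA values below all others. It fell by 1.61 ± 0.28 on the log2 scale (adjusted p = 0.000876, limma), but stayed inside the fold limit without CSA mouse 03 (-1.47, adjusted p = 0.00253) or CFA mouse 74 (-1.25, adjusted p = 0.00116). Efna5, which encodes the ephrin-A5 ligand of EphA3 and other A-class receptors, was at 18.02, 10.4 and 14.4 FPKM in CFS, 21.9, 13.9 and 18.6 in CSS, 18.1, 14.8 and 14.9 in CFA and 5.44, 5.75 and 7.04 in CSA mice. Again the CSA mice did not overlap with the rest. Efna5 differed by -1.38 ± 0.22 from CFA (adjusted p = 0.000524, limma), short of the fold limit, and by -1.55 ± 0.22 from CSS (adjusted p = 0.000190), beyond it, though not without CSS mouse 54 (-1.40) or CSA mouse 01 (-1.47). These genes belong to the same 22 and were looked up with the results known.

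The remaining tested family genes did not pass between CSA and CFA. Ephb3, a B-class receptor, differed by 0.09 ± 0.34 (adjusted p = 0.860, limma), Efna2 by -0.38 ± 0.29 (adjusted p = 0.323) and Efna4 by 0.92 ± 0.62 (adjusted p = 0.265). Without CSA mouse 03 these differences were 0.48 for Ephb3 (adjusted p = 0.164, limma), -0.06 for Efna2 (adjusted p = 0.860) and 1.55 for Efna4 (adjusted p = 0.0531), none of which passed. The values of Efna4, 1.51, 2.45 and 0.449 FPKM in CSA against 1.18, 0.472 and 0.354 FPKM in CFA, overlapped. The genes Epha5, Epha6, Epha8, Epha10, Ephb1, Efna3 and Efnb3 were below the filter, at most at 0.471 FPKM for Ephb1 in CSA mouse 01, and did not enter the fit.

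Beside the family, 52 genes that carry Eph and ephrin signals into the cell were examined, of which 49 were tested. Between CSA and CFA 2 rose and 2 fell, or 8.16% of those tested against 17.2% of all genes. Without the fold limit 15 differed upward and 12 downward, which is 55.1% of those tested against 40.7% of all genes, so that the list lay below the background at one limit and above it at the other. The median difference was 0.03, against -0.04 over all genes. Pak1, a kinase that acts below Rac1 and Cdc42 on the actin cytoskeleton, was at 8.42, 7.25 and 11.7 FPKM in CSA and at 1.42, 2.23 and 1.90 FPKM in CFA mice (log2 difference 2.23 ± 0.22, adjusted p = 1.70e-05, limma). Ptpro, a receptor phosphatase known to dephosphorylate Eph receptors, was at 3.64, 3.58 and 3.71 FPKM in CSA and at 0.608, 1.23 and 0.617 FPKM in CFA mice (2.09 ± 0.30, adjusted p = 0.000222, limma). Both genes were above all mice of the other groups in every CSA mouse.

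On the falling side, Grip2, a PDZ scaffold protein that binds the tail of ephrin-B ligands, was at 0.831, 1.20 and 0.425 FPKM in CSA and at 17.2, 14.8 and 14.1 FPKM in CFA mice. Its log2 difference was -4.16 ± 0.30 (adjusted p = 2.76e-06, limma), more than that of any member. Rock1, a kinase that drives actomyosin contraction, was at 13.5, 14.3 and 32.5 FPKM in CSA and at 46.8, 71.3 and 46.8 FPKM in CFA mice (-1.54 ± 0.30, adjusted p = 0.00203, limma). It was inside the fold limit without CFA mouse 72, CSA mouse 01 or CSA mouse 02 (-1.32 to -1.36) and at -1.95 without CSA mouse 03. Here too the groups did not overlap, although mouse 03 was higher than the other CSA mice.

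Markers of other cell types moved with the same contrast, and because the samples are bulk tissue, fewer cells of a type and less RNA per cell cannot be told apart. The summed FPKM of 7 smooth muscle markers was 789 to 935 in CSA against 5450 to 10175 in the other groups, and all 7 were lower by both limits (median log2 difference -3.52). Of 10 endothelial markers, which bear on Efnb2, Ephb4 and Epha2, 3 were lower and 1 higher between CSA and CFA, with a median of -0.60 and sums of 146 to 203 in CSA, 240 to 501 in CFA and 118 to 455 in CFS. Pecam1 was at 31.3, 29.4 and 43.5 FPKM in CSA and at 131, 75.9 and 187 in CFA, whereas Cdh5 was at 45.1, 33.0 and 32.1 FPKM and 48.7, 35.6 and 58.8 FPKM. In CFS mouse 69 Pecam1 was at 38.3 FPKM, against 199 and 188 in the other CFS mice. There Efnb2 was at 18.8 FPKM, against 22.5 and 18.4 FPKM in the other CFS mice. Ephb4 (13.1 against 16.7 and 21.02 FPKM) and Epha2 (1.42 against 2.72 and 1.80 FPKM) were at their lowest CFS values in it. Nothing is read from this single library. Set against each of the 10 endothelial markers, Efnb2 was lower in all CSA mice than in all CFA mice for 6 of them and overlapped for 4 (Pecam1, Tek, Vwf and Esam). The ratio of Efnb2 to Pecam1 was 0.234, 0.221 and 0.163 in CSA and 0.226, 0.263 and 0.168 in CFA, while the ratio to Cdh5 was 0.162, 0.197 and 0.220 in CSA and 0.609, 0.560 and 0.532 in CFA. The outcome thus depended on the marker. Per 1000 FPKM of the smooth muscle actin Acta2, Efnb2 was at 9.97, 8.38 and 10.3 in CSA and at 5.13, 3.02 and 8.06 in CFA, the opposite side to that of Efnb2 itself. No other smooth muscle marker was used in this way, so this holds for Acta2 only. The part of these markers in the results on the members was not tested.

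Leukocyte markers were at higher levels in CSA, and fibroblast markers were mixed. Between CSA and CFA 7 of 8 macrophage markers, 5 of 5 tested neutrophil markers and 6 of 6 tested T and NK cell markers were higher by both limits, and 1 of 2 tested B cell markers, with macrophage sums of 1147 to 1590 FPKM in CSA and of 160 to 370 FPKM in CFA. Neutrophil sums were 508 to 556 FPKM in CSA and 11.0 to 27.9 FPKM in CFA, with Ly6g, which was not tested, above 0 in 1 of the 3 CSA mice. The 8 fibroblast markers summed to 5241 to 6207 FPKM in CSA and 3730 to 4171 FPKM in CFA, with 0 of 8 higher and 1 of 8 (Gsn, -2.87 ± 0.22) lower by both limits. Col1a1, Col3a1 and Lum were higher by adjusted p alone (0.96, 0.76 and 1.44) and Dpt and Pi16 lower (-1.13 and -1.17). Adipocyte markers had 2 of 5 lower, erythrocyte markers 3 of 3 tested lower, lymphatic endothelial markers 1 of 3 tested higher, Schwann cell and skeletal muscle markers 0 of 5 and 0 of 3, and no mesothelial marker was tested. Their part in the values of Epha3, Ephb2 and Efna1 was not tested.

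The genes with the pattern most like each member over the 12 libraries, by Pearson's r of log2(FPKM + 0.1) among 13475 tested genes with a mean of at least 1 FPKM, are given as a description, since the CSA mice separate from the rest for most of them and all share the same libraries. Epha1 was followed by Slc4a3 (r = 0.995 over 12 libraries, 0.854 over the 9 outside CSA) and Rab5b (0.994 and 0.793), and Epha4 by Wasf3 (0.993 and 0.904) and Mturn (0.986 and 0.852). Epha7 was followed by Pde5a, the phosphodiesterase that breaks down cGMP in smooth muscle (0.985 and 0.935), and Fryl (0.976 and 0.911), and Efnb2 by Bace2 (0.980 and 0.794) and Arhgef10 (0.975 and 0.849). For these 4 members r was lower and positive without the CSA mice. The 9 libraries are among the 12 by which the genes were picked, so this is no separate check of likeness.

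Of the remaining members, Epha3 was most like Nfe2l2, the oxidative stress regulator (0.971 and 0.873), and Ankrd44 (0.953 and 0.773). Ephb2 was most like Tiam1 (0.958 and 0.903), a Rac exchange factor that is also on the signalling list, and Cks1b (0.943 and 0.884). Epha2 was followed by Orai1 (0.885 and 0.805) and Cdca4 (0.883 and 0.778), Ephb4 by Pex14 (0.977 and 0.887) and Shank3 (0.968 and 0.903). The ligand Efna1 had Nhlrc3 (0.942 and 0.975) and Mindy1 (0.90 and 0.935), and Efnb1 had Agpat1 (0.932 and 0.614) and Gga1 (0.931 and 0.605), with the largest drop when the CSA mice, and with them mouse 03, were left out.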

How the data were processed

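RNA-seq (poly(A), paired reads of 150 bases) was performed on 12 abdominal aortas, and each column was matched to a mouse by its label. The authors deposited FPKM per gene, with tables against mm10; the submitters' processing notes name HISAT2 2.0.5, StringTie 1.3.3b and featureCounts 1.5.0-p3, without their roles. No per-sample column was left unused (0). FPKM keeps no counts, but low values were whole multiples of a fragment for 98.0% to 98.5% of genes under 100 fragments (tolerance 0.05), which gave the depths; the authors' values also carry a scaling between libraries. Symbols came from Ensembl identifiers (54495 of 55092 rows), and positions from GENCODE M21 (GRCm38).

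Genes with at least 1 FPKM in at least 3 libraries (14676) were fitted with limma 3.58.1 (R 4.3.3) on log2(FPKM + 0.1), with 1 coefficient per group, trended and robust eBayes and Benjamini-Hochberg adjustment over all tested genes. A call required an adjusted p under 0.05 and a log2 fold change beyond 1.5. Fold changes on this scale understate changes of low genes. The fit was tested on simulated data, with independent normal noise and the same SD of a gene in all groups. No simulated library stood apart as CSA mouse 03 did, so this says nothing on the fit with such a library. All 10 members passed the filter. The members and lists were chosen with earlier results of these data known. Named are all members, the other 12 family genes, called signalling genes (at most 5 in each direction), the 2 genes most like each member and Ccn2. Alternatives were another pseudocount, filter, scaling, eBayes setting and set of groups, no fold limit, and leaving out each mouse. With 3 mice per group the p-values and standard errors rest on a spread between mice that is pooled over all 4 groups and moderated over genes. CSA mouse 03 thus also enters comparisons without CSA mice. The standard error of Epha1 was 0.62 both between CSS and CFS and between CSA and CFA. Intervals and floors cover counting or sampling error only.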

Additional observations from a re-analysis of the deposited data

Results flagged for a closer look

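For 10 genes of the family and its signalling list the effect of genotype differed between Ang II and saline, by the interaction term of the limma fit, at an adjusted p under 0.05 and beyond the fold limit of 1.5. They were 3 of 10 members and 7 of 54 other tested genes (12.96%), where 15.2% of all genes passed. Among the members these were Epha1 (-3.52, and -2.55 without CSA mouse 03), Epha4 (-1.62) and Efnb2 (-2.01), all log2 values and given as a description. Of the other family genes, Ephb6 was at -1.57 (adjusted p = 0.0134, limma) and Efna5 at -1.73 (adjusted p = 0.00229). Of the signalling genes, Grip2 was at -4.61 (adjusted p = 4.86e-05), Pak1 at 2.16 (adjusted p = 0.000545) and Ptpro at 2.24 (adjusted p = 0.00276). The same held for Ngef, the exchange factor ephexin that acts below EphA receptors, at -2.95 (adjusted p = 0.000175), and for Kalrn, another exchange factor, at -1.52 (adjusted p = 0.000950), both named after their values were seen. Leaving out 1 mouse put Ephb6 inside the fold limit (-1.45 when this was CSS 55, -1.21 for CFA 74 and -1.43 for CSA 03), and Kalrn likewise for 6 of the 12 mice, with values from -1.39 to -1.497. In the other direction Rock1, at -1.46 and not among the 10, passed both limits when CFS 68, CSS 55, CFA 71, CFA 74 or CSA 03 was left out, with values from -1.53 to -1.87 (adjusted p from 0.0457 to 0.000388, limma).

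Ngef was at 1.40, 1.23 and 1.53 FPKM in CFS, 5.95, 3.51 and 5.70 in CSS, 2.13, 3.44 and 2.34 in CFA and 1.06, 1.17 and 1.0 in CSA mice. The CSS mice were above all others. The difference between CSS and CFS was 1.76 ± 0.24 (adjusted p = 0.0550, limma), so that its genotype effects had opposite signs under saline and Ang II (-1.19 ± 0.24, adjusted p = 0.00214). The adjusted p between CSS and CFS fell under 0.05 when CSS 55 (0.0417), CFA 72 (0.0322) or CSA 03 (0.0166) was left out. Its exons share 3.15% of their bases with other annotated genes.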

How the results depend on the processing

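No paired analysis was possible because the groups share no replicate numbers. With a pseudocount of 1, 10 fold changes of Epha1, Epha4, Epha7 and Ephb2 moved by more than the spread between mice. Without CSA mouse 03, CSA against CFA, CSA against CSS and the interaction were at -2.68, -2.98 and -2.55 for Epha1 and at 0.73, 0.59 and 0.95 for Efnb1. Alternatives that leave a fold change as it is by construction, such as another filter or moderation of the variance, say nothing on its stability. Median-of-ratios scaling is likewise no check, since its factor was 1.01 in every library. Requiring a mean of 5 FPKM, which left 5 members and 36 listed genes tested, the members called went from 3 to 1 between CSA and CFA, from 4 to 1 between CSA and CSS and from 3 to 1 in the interaction, each time Efnb2, and the calls among the family and signalling genes that are not members went from 5 to 2, 8 to 3 and 7 to 2. A pseudocount of 1 left 1 member called between CSA and CSS, and 2, 5 and 4 of those other genes in the same 3 comparisons. Without the fold limit 5 members were called between CSA and CFA, and 29, 30 and 18 other genes in the 3 comparisons. Between CSS and CFS the 0 calls among other genes became 1 with all libraries scaled to one common sum and with only the compared groups in the fit, and 0 to 1 when single mice were left out (1 without CSS mouse 55, CFA mouse 72 or CSA mouse 03). Over all genes, 1095 to 5978 were called between CSA and CFA (2528 as reported). Calls at low levels, such as those of Epha4 and Epha7, depended on the pseudocount, and the part of depth in them was not tested.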
